A study of Mus musculus with 12 samples.

Results

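The circadian clock genes Per1, Per2, Per3, Dbp, Tef, Nr1d1, Nr1d2, Arntl, Cry1, and Bhlhe41 were described on 12 one-colour Agilent arrays of mouse brain. The 10 genes were chosen by name, through the transcript that each probe is named for, among 20868 genes named on the arrays, and all 10 were among the 19648 genes that passed the filter on dim probes. They were read by 12 probes, with 2 probes each for Dbp and Bhlhe41 and 1 for each of the others. The study compared animal models of Alzheimer's disease, with 1 array per model and RNA pooled from 3 animals on each array, so the spread between animals is unknown, and no test was made. Aged arrays carried prefrontal cortex of C57BL/6 mice at 1.5, 4, 17, and 22 months. Transgenic arrays carried hippocampus of C57BL/6 mice overexpressing mutated human NCSTN (10 months) or wild-type human MAPT (12 months), or carrying human APP with familial mutations (5×FAD, 6 months). The labels give C57BL/6 for all of these arrays, and the methods name C57BL/6N as the control strain of the NCSTN and 5×FAD mice, so substrain may differ from that of the aged mice. The promoters that drive these transgenes are not given in the sources used here. The ICR arrays carried hippocampus of mice 7 weeks old and were of 3 kinds. Aβ (5 or 10 μM) had been injected into the ventricles 14 days before dissection, streptozotocin (2.5 or 3 mg/kg) by the same route and over the same time, and scopolamine (1 mg/kg) into the peritoneum 30 min before. No nontransgenic hippocampus and no vehicle-injected ICR mice were analysed here, so arrays were compared only with each other within a strain and region. Every mouse was kept alone on a light and dark cycle of 12 h, fasted over the night before, and put under isoflurane. The hour of dissection is not given in the sources used here, and hour and model cannot be told apart.

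The circadian clock is a feedback loop in which Arntl (BMAL1) pairs with Clock or Npas2 and switches on genes through the E-box, a short promoter motif. Among those genes are Per and Cry, whose proteins return to block the pair, and Nr1d1 and Nr1d2, whose proteins repress Arntl through another motif, the RORE. Dbp and Tef bind D-boxes and carry the rhythm further. In most mouse tissues the RNAs of Dbp, the Per genes, and the Nr1d genes therefore rise and fall roughly opposite to Arntl over the day, and forebrain regions outside the hypothalamic pacemaker also cycle. Whether these genes moved opposite to Arntl between the arrays of each strain and region was the question.

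The promoters of 9 of the 10 genes were matched in RefSeq (GRCm38.p6), 12 promoters in all, and searched over the 250 bases before the start site on both strands. Per2 was not matched. The letters searched were CACGTG for the E-box, TTANGTAA for the D-box, TAGGTCA for the RORE, and TGACGTCA for the cyclic AMP response element. Per3 is shown because it differed most between arrays and held 2 D-box matches, Per1 because it is the Per gene that differed most with age and held an E-box, and Cry1 because it held an E-box but did not move opposite to Arntl in the transgenic or aged arrays. Capitals mark the matches, and each sequence runs 5′ to 3′.
Per3, chr4:151044666-151044915, minus strand: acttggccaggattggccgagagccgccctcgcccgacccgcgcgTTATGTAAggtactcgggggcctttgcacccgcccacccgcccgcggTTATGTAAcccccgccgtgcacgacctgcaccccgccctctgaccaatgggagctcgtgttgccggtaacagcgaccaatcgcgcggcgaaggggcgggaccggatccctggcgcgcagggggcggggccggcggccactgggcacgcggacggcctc
Per1, chr11:69098699-69098948, plus strand: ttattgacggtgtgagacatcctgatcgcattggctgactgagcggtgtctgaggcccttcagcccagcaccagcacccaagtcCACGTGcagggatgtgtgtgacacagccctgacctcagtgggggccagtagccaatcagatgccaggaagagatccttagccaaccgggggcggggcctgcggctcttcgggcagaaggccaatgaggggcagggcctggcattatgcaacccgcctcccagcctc
Cry1, chr10:85185055-85185304, minus strand: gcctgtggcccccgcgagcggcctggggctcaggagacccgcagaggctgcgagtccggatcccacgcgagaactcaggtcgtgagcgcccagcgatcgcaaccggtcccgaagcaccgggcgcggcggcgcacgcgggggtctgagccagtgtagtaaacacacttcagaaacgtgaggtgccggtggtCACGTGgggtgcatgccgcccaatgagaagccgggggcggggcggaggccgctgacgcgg
The D-box matches of Per3 began -205 and -158 bases from the start site, the E-box of the Per1 promoter shown at -166, and that of Cry1 at -60. The other Per1 promoter held none of the 4 motifs. Both Tef promoters held an E-box, at -127 and -138, and so did that of Bhlhe41, at -153. None of the 4 motifs was matched in the windows of Dbp, Nr1d1, Nr1d2, and Arntl. Of 32851 promoters of the same length, 6.02% held an E-box, 2.06% a D-box, 2.23% the RORE letters, and 1.55% the cyclic AMP element. A match in these windows is a string of letters and not a measured site. Sequence after the start site or further upstream was not searched, and other spellings of a motif were not counted. The lack of a match therefore does not show that a gene lacks the motif.

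The labelled regions were checked by markers before the clock genes were read. Prox1, a dentate granule cell gene, lay between 4.82 and 5.59 on the cortex arrays and between 7.60 and 8.22 on the hippocampus arrays, and the cortical gene Lamp5 lay between 12.05 and 12.83 on the former and between 8.90 and 9.81 on the latter. All levels are log2 of the processed spot signal after quantile normalization, and the order of 2 genes on this scale means nothing, since probes differ in brightness. Between 63.5% and 75.8% of probes were well above background on each array. The methods describe male mice, yet Xist was well above background on 3 of 3 transgenic arrays and on 0 of the 9 others, and the Y-linked Ddx3y showed the reverse, on 0 of 3 and 9 of 9. The transgenic arrays therefore went against the stated sex, all 3 alike. In the matrix of processed values that the authors deposited, the aged, NCSTN, and MAPT columns shared 1 distribution to within 0.0446%, whereas 5×FAD had its own, up to 43.5% apart at equal rank. MAPT and NCSTN were thus the only transgenic pair whose deposited values shared a distribution. Whether 5×FAD was also handled or hybridized apart is not known. Such a difference could not be told apart from those of transgene and age.

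Among the 10 genes, the largest differences within a set were those of Per3 and Dbp on the transgenic arrays, where both were highest in 5×FAD, and where Arntl was lowest. Of the 10 genes, 3 (Per3, Dbp, and Cry1) differed at least 2-fold between the lowest and highest transgenic array, beside 16.7% of all genes. The median range over the members was 0.55 log2 units, against 0.45 over all genes. Of the 9 genes other than Arntl, 5 (Per1, Per3, Dbp, Tef, and Nr1d1) moved opposite to Arntl in all 3 pairs of transgenic arrays, beside 17.5% of all genes. Among the 6 Per, Dbp, and Nr1d genes the count was 4. The pairs share arrays and are not replicates. The direction of MAPT against NCSTN rested on a difference in Arntl of -0.11, which became 0.01 with another background correction, and the count of 4 then fell to 0.

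**Figure D1:**
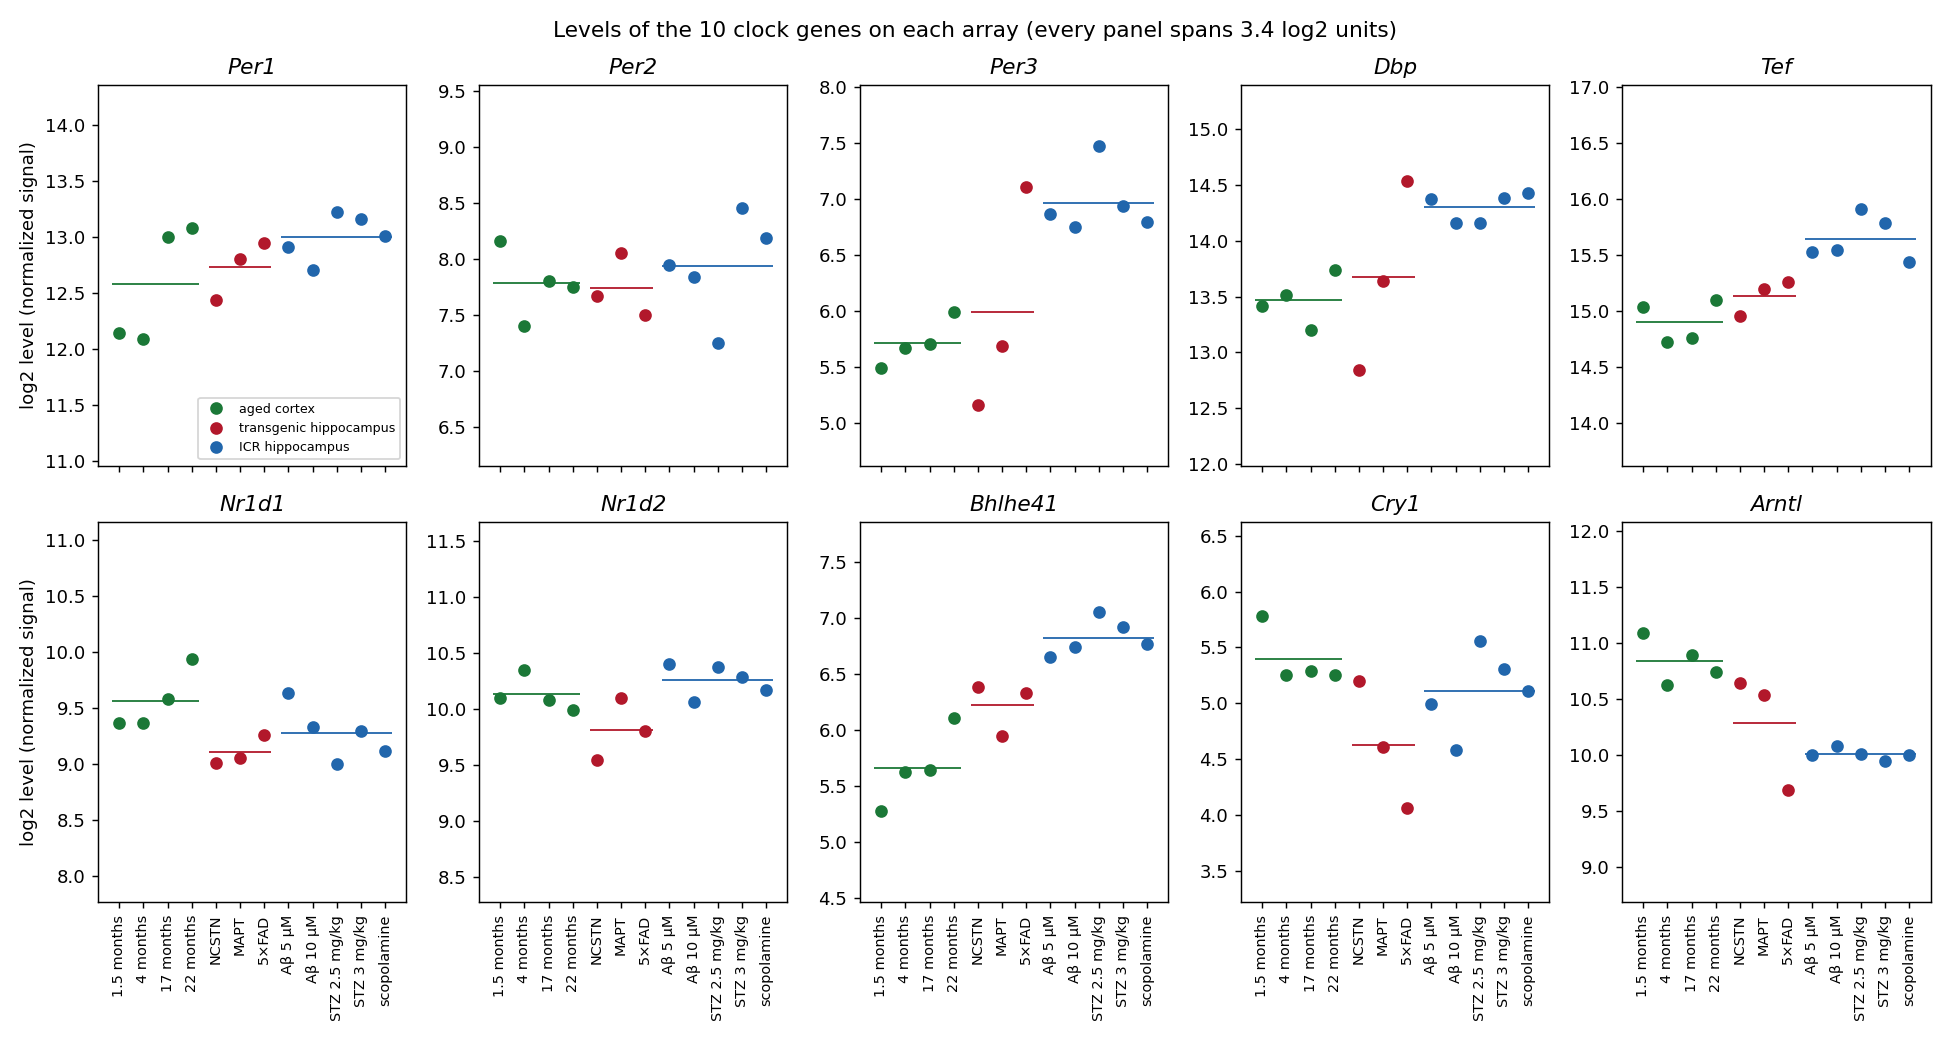
Log2 level (normalized signal, y axis) of each clock gene on each of the 12 arrays (x axis), with colours for the 3 strain and region sets and a horizontal line at the mean of each set. Dbp and Per3 were higher and Arntl lower on the 5×FAD array (14.53, 7.11, and 9.68) than on the NCSTN array (12.85, 5.16, and 10.64). STZ is streptozotocin.

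Arntl, the positive arm of the loop, had a level of 10.64 on the NCSTN array, 10.53 on the MAPT array, and 9.68 on the 5×FAD array. The first of these differed little from the second, and 5×FAD stood 1.95-fold below NCSTN. Under the alternative processings the 5×FAD minus NCSTN difference lay between -0.96 and -0.86.

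Dbp, an output gene of the clock that encodes a D-box activator, had levels of 12.85 (NCSTN), 13.64 (MAPT), and 14.53 (5×FAD), a range of 3.22-fold. Both Dbp probes gave this order, with 12.90, 13.68, and 14.66 on one and 12.79, 13.60, and 14.40 on the other. The 5×FAD minus NCSTN difference of 1.69 log2 units lay between 1.53 and 1.77 under the alternatives. In the pair with a shared distribution in the deposited matrix, MAPT exceeded NCSTN by 0.79. Tef, a relative of Dbp in the same bZIP family, was far flatter at 14.96, 15.20, and 15.26 in the same order of arrays. Its 5×FAD minus MAPT difference of 0.06 changed sign under 2 of the alternatives, where it opposed Arntl in 2 of the 3 pairs.

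Per3, a Period gene not required for the core oscillation, had levels of 5.16 (NCSTN), 5.69 (MAPT), and 7.11 (5×FAD), a range of 3.87-fold. It is a dim probe, and with another background correction the 5×FAD minus NCSTN difference of 1.95 was 0.97. Per1, which encodes a repressor of the loop and also answers to neuronal activity and glucocorticoids, had levels of 12.44, 12.81, and 12.95 in the same order of arrays. Per2, its close relative in the repressor complex, did not follow, with 7.67 (NCSTN), 8.05 (MAPT), and 7.50 (5×FAD), so that it was lowest where Per3 was highest.

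Nr1d1 (REV-ERBα), a repressor of Arntl, had levels of 9.01, 9.05, and 9.26 on the NCSTN, MAPT, and 5×FAD arrays, a range of 0.26 log2 units. Nr1d2 (REV-ERBβ), which shares this role, had 9.55, 10.10, and 9.81 and was highest on the MAPT array. Neither Nr1d gene differed between transgenic arrays by as much as Dbp. Cry1, which encodes the repressor partner of the Per proteins, had levels of 5.21, 4.61, and 4.07 and moved with Arntl in all 3 pairs. Movement in the direction of Arntl in every transgenic pair was seen in 1 of the 9 genes and in 25.8% of all genes. The Cry1 difference of -1.13 between 5×FAD and NCSTN was -0.85 with 75th percentile scaling, -0.82 with the deposited matrix, and -0.36 with another background correction. All of these were under 2-fold, and the filter on flags drops Cry1. Under that scaling, that matrix, and that filter, 2 members and not 3 reached 2-fold on the transgenic arrays. Bhlhe41 (DEC2), a repressor that competes for E-boxes, had 6.39, 5.95, and 6.33, and the sign of its 5×FAD minus NCSTN difference turned under 3 of the alternatives.

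**Figure D2:**
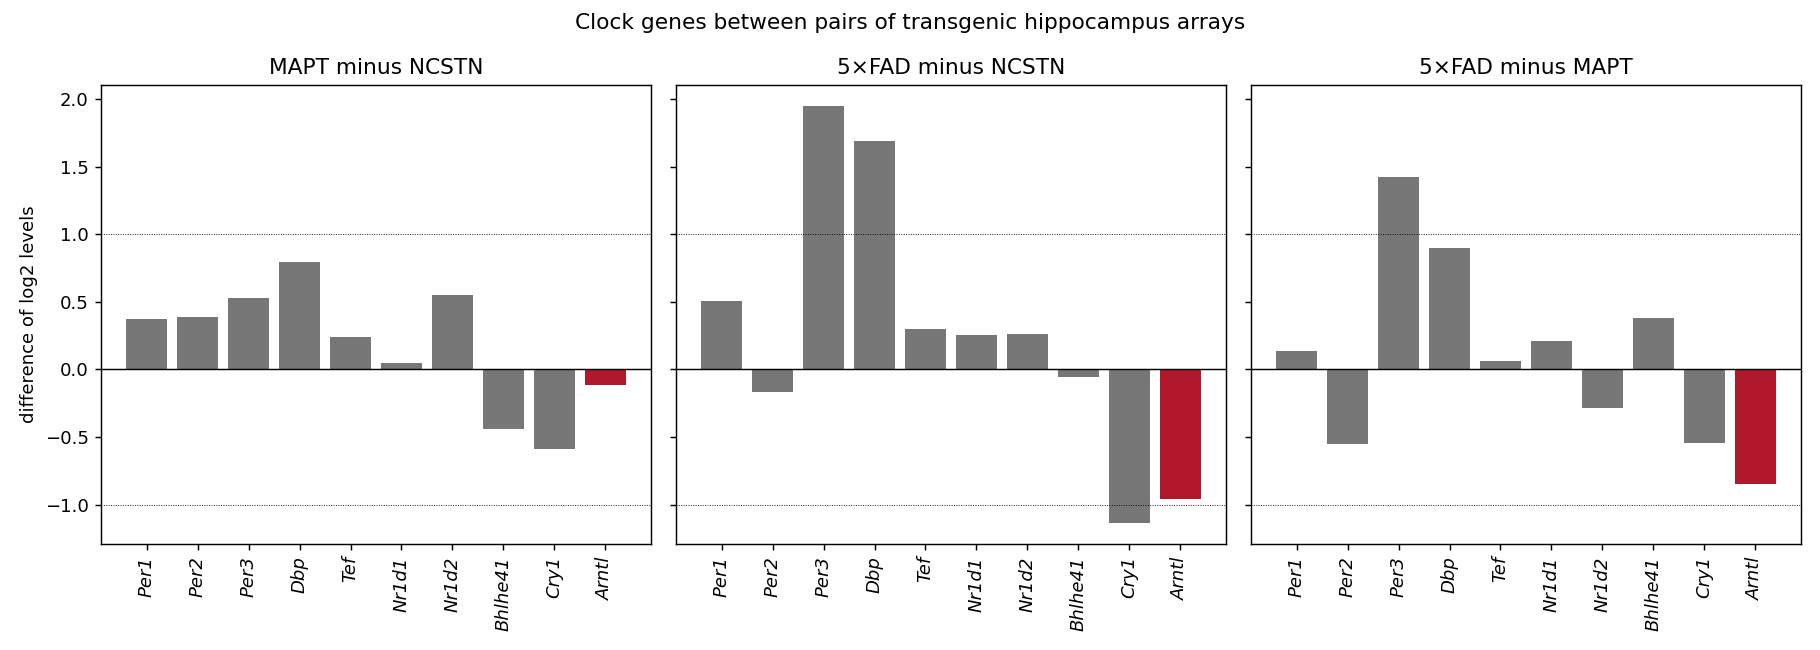
Difference of log2 levels (y axis) of the 10 clock genes (x axis) for the 3 pairs of transgenic hippocampus arrays, with Arntl in red and dotted lines at 2-fold. In 5×FAD minus NCSTN, Per3 and Dbp reached 1.95 and 1.69 and Arntl -0.96, while MAPT minus NCSTN gave 0.79 for Dbp and -0.11 for Arntl.

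Other gene lists moved on the same 3 arrays. The mean of 12 immediate early genes, such as Fos and Egr1, lay 0.45 (NCSTN) and 0.52 (MAPT) above the mean of the set, and at -0.97 log2 units in 5×FAD, with summed levels from 13.61 to 15.45. The mean of 6 microglia genes was -0.40, -0.46, and 0.86 in that order of arrays, with summed levels from 13.56 to 15.16. The 11 glucocorticoid response genes went both ways and had means of -0.10, -0.05, and 0.15. Their summed level ran from 16.25 (NCSTN) to 17.75 (5×FAD), where Mt2, the brightest of them, made up most of the sum. Between NCSTN and 5×FAD, Plin4 went from 8.38 to 10.78, Mt2 from 15.37 to 17.55, and Ddit4 from 13.98 to 11.64. The 6 of 7 heat and cold response genes measured had means of 0.16, -0.01, and -0.15, and the 9 choroid plexus genes of -0.10, -0.19, and 0.30. The summed level of the choroid plexus genes ran the other way, at 16.97 (NCSTN), 17.08 (MAPT), and 16.71 (5×FAD). Pituitary markers (5 of 6 measured, between 2 and 5 of them well above background) stood 2.27 above the mean of the set on the MAPT array. Their summed level there was 12.52, against a lowest of 8.98. Prl (12.35), Gh (6.71), and Cga (5.50) were highest on that array. Pomc (8.79, 8.86, and 8.79 on NCSTN, MAPT, and 5×FAD) and Lhb (5.37, 5.67, and 5.68) differed little. Markers of the hypothalamus, which holds the master pacemaker, were measured for 8 of 9 genes and lay between -0.26 and 0.26 of the mean of the set. All members of the immediate early, microglia, glucocorticoid, and choroid plexus lists were well above background on these arrays. Their part in the clock gene differences was not tested, and fewer cells of a type cannot be told from less RNA per cell in such tissue.

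**Figure D3:**
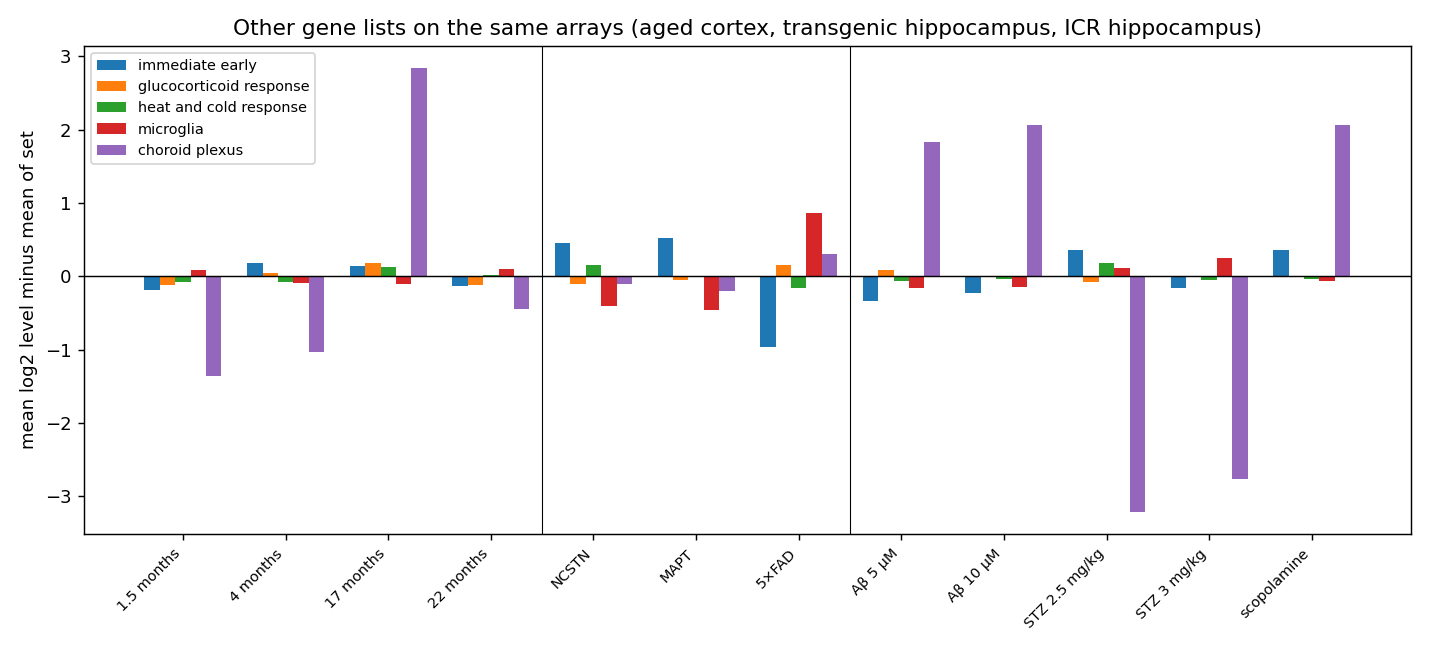
Mean log2 level of each of 5 other gene lists on each array, minus the mean of that list over its set of arrays (y axis), with vertical lines between the aged cortex, transgenic hippocampus, and ICR hippocampus sets (x axis). Immediate early genes were low (-0.97) and microglia genes high (0.86) in 5×FAD, and choroid plexus genes were low on both streptozotocin arrays (-3.21 and -2.77).

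In the ICR hippocampus Arntl and Dbp were nearly flat, while Per2, Cry1, Per3, and Nr1d1 differed by more than 1.5-fold between arrays. The level of Arntl was 10.00 (Aβ at 5 μM), 10.08 (Aβ at 10 μM), 10.00 (streptozotocin at 2.5 mg/kg), 9.94 (streptozotocin at 3 mg/kg), and 10.00 (scopolamine), a range of 1.10-fold. Only 10.6% of all genes had a range as small or smaller, and none of the 10 pairs of ICR arrays differed in Arntl by 1.2-fold. Of the 9 other genes, 2 (Per2 and Dbp) moved opposite to Arntl in at least 8 of the 10 pairs, beside 9.34% of all genes, and these directions rest on differences in Arntl of at most 0.14 log2 units. Under the matrix deposited by the authors the count was 0. In that matrix the median of all genes was itself shifted relative to the mean over arrays. The shift was -0.32 on scopolamine, -0.23 on Aβ at 10 μM, and 0.11 on streptozotocin at 2.5 mg/kg. Arntl had a range of 0.29 there, and the part of these shifts in the count was not tested. Of the 10 genes, 1 (Per2) had a range of at least 2-fold, beside 20.9% of all genes. The median range was 0.50 over the members and 0.41 over all genes.

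Per2 had levels of 7.95 and 7.84 with Aβ at 5 and 10 μM, 7.25 and 8.46 with streptozotocin at 2.5 and 3 mg/kg, and 8.19 with scopolamine. The lowest and the highest value were both streptozotocin arrays, 2.31-fold apart, and without either of them the range was under 2-fold. The range of Per2, 1.21 log2 units, was 0.86 with the deposited matrix and 0.96 with the other background correction, both under 2-fold. With that matrix, whose array medians were shifted as given above, Per3, at 1.24, was the 1 member past 2-fold. Per1 was between 12.70 (Aβ at 10 μM) and 13.22 (streptozotocin at 2.5 mg/kg), so the array lowest in Per2 was the highest in Per1. Per3 was highest on that array too, at 7.48, with 6.86 and 6.75 for Aβ at 5 and 10 μM, 6.93 for streptozotocin at 3 mg/kg, and 6.79 for scopolamine.

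Dbp lay between 14.16 and 14.43 on the ICR arrays, a range of 0.27 log2 units. Tef was higher on both streptozotocin arrays, at 15.92 and 15.79, than with Aβ (15.53 and 15.55) or scopolamine (15.44). Nr1d1 was between 9.00 (streptozotocin at 2.5 mg/kg) and 9.63 (Aβ at 5 μM), and Nr1d2 between 10.06 and 10.41. Cry1 was between 4.58 and 5.56, and its lowest value, with Aβ at 10 μM, was not well above background. Bhlhe41 was between 6.65 and 7.05. The 9 choroid plexus genes stood 1.84, 2.07, and 2.07 log2 units above the mean of the set with Aβ at 5 μM, Aβ at 10 μM, and scopolamine, and at -3.21 and -2.77 with streptozotocin at 2.5 and 3 mg/kg, and their part in the Tef and Per2 values was not tested. Between 8 and 9 of these genes were well above background on each ICR array, with summed levels from 11.78 to 17.60. The 6 fibroblast genes, all well above background, stood at 1.39 and 1.12 with Aβ at 5 and 10 μM, -1.74 and -0.28 with streptozotocin at 2.5 and 3 mg/kg, and -0.49 with scopolamine, with summed levels from 12.13 to 15.31. They were thus lowest on the array with the lowest Per2 and the highest Per1 and Per3, and their part in those values was not tested.

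In the aged cortex no gene of the 10 reached 2-fold, beside 14.2% of all genes, and Per1 came nearest. Per1 had levels of 12.15, 12.09, 13.00, and 13.08 at 1.5, 4, 17, and 22 months, a range of 1.98-fold. Both older arrays were above both younger ones, by 0.92 on average. Such a separation of the 17 and 22 month arrays from the 1.5 and 4 month arrays was found in 5 of the 10 genes, beside 35.2% of all genes. Per3 (5.49, 5.66, 5.71, and 5.99) and Nr1d1 (9.36, 9.37, 9.59, and 9.94) were also higher on the older arrays. Nr1d2 was lower on them, at 10.10, 10.35, 10.09, and 10.00 in order of age, though by only 0.01 between the nearest arrays. Bhlhe41 was the remaining gene, at 5.28, 5.63, 5.65, and 6.11, and its 2 probes disagreed, with 5.13 for 17 months below 5.66 for 4 months on one of them.

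Arntl did not separate by age, with 11.08, 10.62, 10.89, and 10.74 at 1.5, 4, 17, and 22 months. No gene of the 9 moved opposite to Arntl in at least 5 of the 6 pairs of cortex arrays, beside 16.0% of all genes. Dbp, at 13.42, 13.52, 13.20, and 13.74 in order of age, did so in 4 pairs. Without the 4 month array, 3 of the 6 Per, Dbp, and Nr1d genes opposed Arntl in every pair left. The share of all genes was not counted for that case. Per2 and Cry1 moved in the direction of Arntl in at least 5 of the 6 pairs, 2 of 9 genes beside 14.9% of all genes. Per2 had levels of 8.17, 7.41, 7.81, and 7.76, and Cry1 5.78, 5.25, 5.29, and 5.25, both highest at 1.5 months as Arntl was. Tef was between 14.73 and 15.10. Choroid plexus genes stood 2.84 above the mean of the set at 17 months and between -1.35 and -0.45 at the other ages, and their part in these values was not tested. Between 5 and 9 of the 9 were well above background on the cortex arrays, with summed levels from 7.62 to 15.62. The 6 fibroblast genes, all well above background, stood 0.68 above the mean of the set at 1.5 months and between -0.46 and -0.03 at the other ages, with summed levels from 12.57 to 13.58, and their part was not tested either. The median range over the members was 0.53, against 0.39 over all genes.

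Over all 19 pairs of arrays within the 3 sets, Dbp was the only member opposite to Arntl in at least 16 pairs. It was so in exactly 16, and 0.855% of all genes reached that number. Of the 16, 9 were pairs of ICR arrays, where Arntl differed by at most 0.14 log2 units. Most of the count for Dbp thus rests on the sign of small differences in Arntl. The other members ranged from 7 pairs (Cry1) to 13 (Per1 and Per3), with Per2 opposite in 10, Tef in 9, Nr1d1 in 12, Nr1d2 in 11, and Bhlhe41 in 11. Where Arntl itself differed by at least 1.2-fold, in 5 pairs, Dbp was opposite in 5, Per3 and Nr1d1 in 4, Per1, Nr1d2, Tef, and Bhlhe41 in 3, and Per2 and Cry1 in 0. Of these pairs, 3 were of cortex arrays and 2 of transgenic arrays, both with 5×FAD. They share arrays, and the share of all genes was not counted for them. Under the 75th percentile scaling, the deposited matrix, and the other background correction, Dbp did not reach 16 pairs, and no member did.

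**Figure D4:**
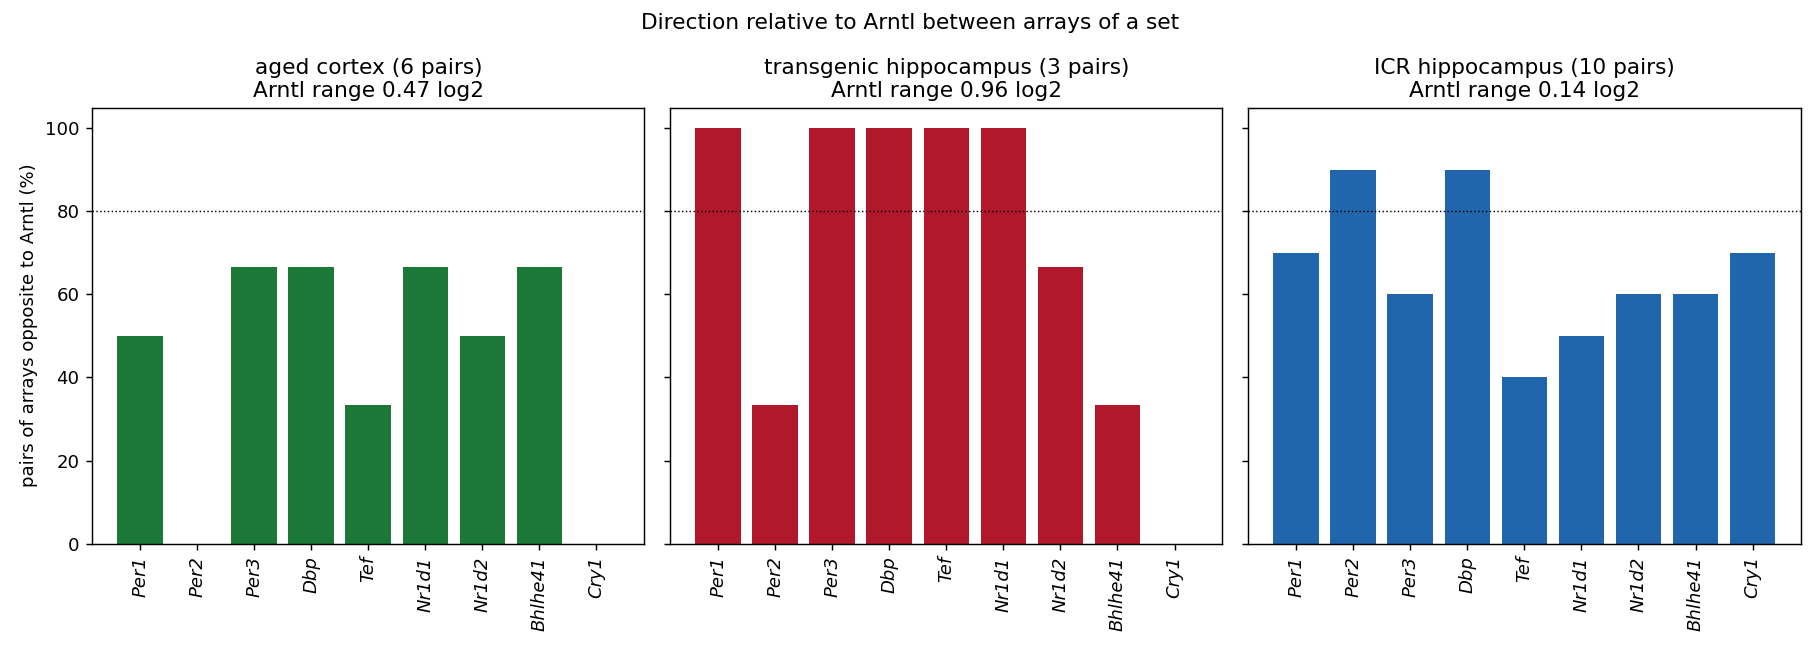
Share of pairs of arrays (percent, y axis) in which each of 9 clock genes (x axis) differed in the direction opposite to Arntl, for aged cortex (6 pairs), transgenic hippocampus (3 pairs), and ICR hippocampus (10 pairs), with the range of Arntl above each panel and a dotted line at 80%. Per1, Per3, Dbp, Tef, and Nr1d1 opposed Arntl in all 3 transgenic pairs, and no gene passed the line in the cortex.

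The clock contrast, the mean of Per1, Per2, Per3, Dbp, Nr1d1, and Nr1d2 minus Arntl, gives 1 number per array, of which only differences between arrays can be read. In the transgenic hippocampus it was -1.20 (NCSTN), -0.64 (MAPT), and 0.51 (5×FAD), a range of 1.71 log2 units, and it was 0.56 without 5×FAD. In the aged cortex it was -1.30, -0.88, -0.99, and -0.66 at 1.5, 4, 17, and 22 months, a range of 0.65. In the ICR hippocampus it was 0.36 and 0.06 with Aβ at 5 and 10 μM, 0.25 and 0.48 with streptozotocin at 2.5 and 3 mg/kg, and 0.29 with scopolamine, a range of 0.42. Thus 5×FAD, a C57BL/6 array, had a value above every ICR array and above the other 6 C57BL/6 arrays. Its Arntl (9.68) was likewise below the ICR range of 9.94 to 10.08, its Dbp (14.53) above 14.16 to 14.43, and its Per3 (7.11) inside 6.75 to 7.48. The other C57BL/6 arrays had Arntl from 10.53 to 11.08, Dbp from 12.85 to 13.74, and Per3 from 5.16 to 5.99. Strain, region, sex, age, transgene, and treatment differ between these arrays and cannot be told apart, and handling may differ too.

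**Figure D5:**
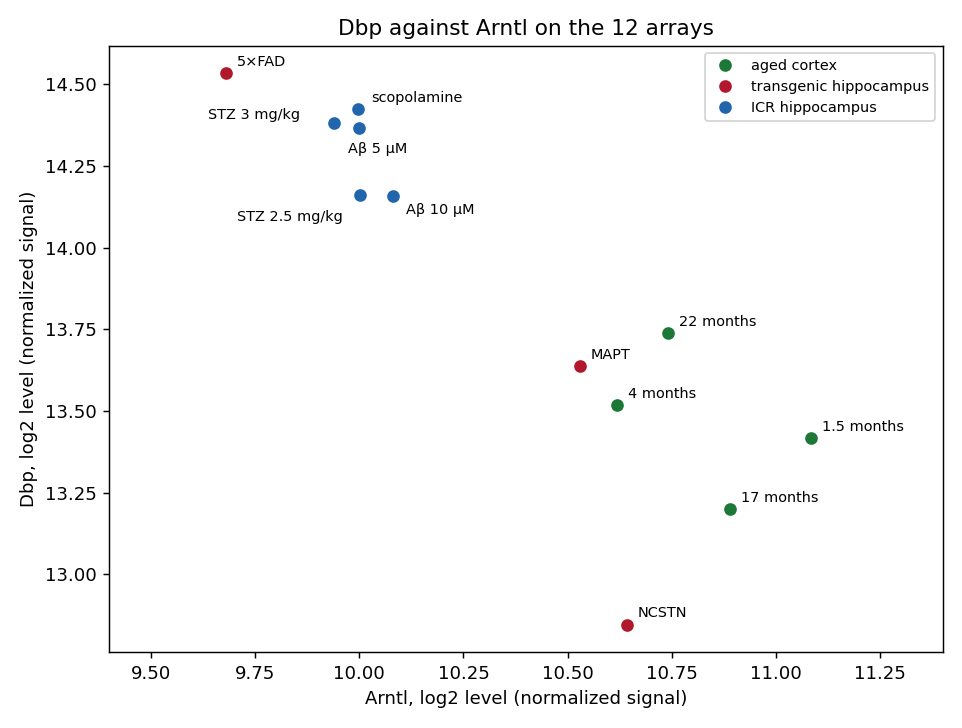
Log2 level of Dbp (y axis) against that of Arntl (x axis), both normalized signal, on the 12 arrays, with colours for the 3 sets. The 5×FAD array (Arntl 9.68, Dbp 14.53) lay beside the ICR arrays, and the NCSTN and MAPT arrays lay beside the aged cortex arrays in Arntl.

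Between sets, the levels of 2 of the 10 genes did not overlap between ICR and transgenic hippocampus, beside 22.6% of all genes. These were Tef and Bhlhe41, both higher on the ICR arrays, from 15.44 and 6.65 upward against at most 15.26 and 6.39. Without 5×FAD the count was 5, but fewer arrays make separation easier for any gene. The share of all genes was not counted for that case. Transgenic hippocampus and aged cortex were apart for 2 of the 10, beside 31.5% of all genes, with Nr1d1 and Cry1 lower in the hippocampus. Their separation was narrow, 9.26 against 9.36 for the nearest arrays of Nr1d1 and 5.21 against 5.25 for Cry1.

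The 20 other clock genes, namely the partners, kinases, ligases, and output factors around the loop, all passed the filter. On the transgenic arrays 0 of the 20 had a range of at least 2-fold (16.7% of all genes). Of the 20, 4 (Cry2, Csnk1d, Csnk1e, and Usp2) were opposite to Arntl in all 3 pairs (17.5% of all genes), and 7 (Clock, Npas2, Nfil3, Rora, Rorb, Fbxl21, and Btrc) moved with it (25.8% of all genes). Clock, the partner of Arntl, was 9.30, 9.14, and 8.93 on the NCSTN, MAPT, and 5×FAD arrays, and Npas2, which can take its place, was 5.79, 5.77, and 5.00. Thus both partner genes were lowest on the array where Arntl was lowest. Cry2, a repressor like Cry1, was 13.23, 13.28, and 13.82 and so ran against Cry1. In the aged cortex 1 of the 20 reached 2-fold (14.2% of all genes), Bhlhe40 (DEC1, the relative of Bhlhe41), at 10.83, 10.51, 11.62, and 11.07 in order of age. There 7 of the 20 were opposite to Arntl in at least 5 pairs (16.0% of all genes) and 2 (Cry2 and Nampt) moved with it (14.9% of all genes). In the ICR hippocampus 3 of the 20 reached 2-fold (20.9% of all genes). Among them were Arntl2, a paralogue of Arntl, between 3.06 and 4.80, and Timeless, a replication fork gene, between 6.73 and 7.81. Arntl2 did not pass the filter on flags. Nampt was the only 1 of the 20 opposite to Arntl in at least 8 of the 10 ICR pairs (9.34% of all genes), and 0 of the 20 was so in 16 of the 19 pairs (0.855% of all genes).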

How the data were processed

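RNA of each model, pooled from 3 animals, was hybridized to 1 Agilent mouse array. The authors deposited intensity values of every spot as scanned (processed signal, foreground, background, and flags), and a matrix of processed values of the same arrays, used here as an alternative only. Outlier spots (110 to 234 of 43020 per array) were left out, spots of 1 probe averaged, and probes kept whose foreground was at least 1.4-fold over local background on all 12 arrays (36520 of 39429). The log2 processed signal was quantile normalized over the 12 arrays, and probes of 1 gene, named through RefSeq accessions, were averaged. A range of 2-fold and opposition in at least 80% of pairs were counted, beside the share of all genes. No test was made, since each model has 1 array. The groups of arrays compared differ in strain, region, age, or model, and handling may differ too. Precision is limited by the number of arrays. The members, lists, and counts were chosen with earlier results of these data known. The genes named were the 10 members, other clock genes with a range of at least 2-fold, and the 5 genes most like Dbp and the 5 most like Arntl. Other genes were named after their values were seen, and a few of those the rule names are not reported here. Alternatives were scaling by the 75th percentile, the deposited matrix, normexp in limma 3.58.1 (offset 50, on foreground medians since no means were used here), no filter, a 2-fold filter, a filter on flags, the brightest probe, other thresholds, and leaving out each array. The counting was tested on simulated data. Analyses used Python 3.11.15, pandas 2.3.3, numpy 2.4.6, and R 4.3.3.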

Additional observations from a re-analysis of the deposited data

Results flagged for a closer look

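Of 22 values looked at for an array far from the rest of its set, 2 were past Dixon's limit, which chance alone passes in about 1 of 20 groups. Cry1 at 1.5 months, with a level of 5.78, stood apart from the other 3 aged cortex arrays, which lay between 5.25 and 5.29. Per3 with streptozotocin at 2.5 mg/kg, with a level of 7.48, stood apart from the other 4 ICR arrays, which lay between 6.75 and 6.93.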

How the results depend on the processing

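Over the alternatives 169 counts and ranges stayed near the reported value and 47 moved. The sign of 7 single differences turned. Tef between 5×FAD and MAPT became -0.03 (75th percentile) and -0.05 (deposited matrix), Arntl between MAPT and NCSTN 0.01 (normexp), Bhlhe41 between 5×FAD and NCSTN 0.14 (75th percentile), 0.17 (deposited matrix), and 0.02 (filter on flags), and Bhlhe41 between the streptozotocin arrays 0.05 (brightest probe). The counts of members not overlapping between groups of arrays, and leaving out both streptozotocin arrays, were chosen after seeing the data. With 75th percentile scaling, 1 member reached 2-fold in the aged cortex, 1 of the Per, Dbp, and Nr1d genes opposed Arntl in the ICR hippocampus and 0 over all pairs, and 1 other clock gene did over all pairs. With the deposited matrix, the opposed counts were 0 in the ICR hippocampus and 0 over all pairs, and 1 member was apart between transgenic hippocampus and cortex. That matrix shifted the median of all genes on 5×FAD by 0.18, on Aβ at 10 μM by -0.23, on streptozotocin at 2.5 mg/kg by 0.11, and on scopolamine by -0.32 relative to the mean over arrays, and all other shifts were under 0.1. With normexp, 1 member reached 2-fold in the transgenic and 0 in the ICR hippocampus, the opposed counts were 0 in the transgenic hippocampus, 1 in the ICR hippocampus, and 0 over all pairs, and among the other clock genes 1 reached 2-fold in any set and 1 opposed Arntl over all pairs. With the filter on flags, which drops Cry1, 1 member was apart between transgenic hippocampus and cortex. A threshold of 1.5-fold gave 3 members in the cortex and 4 in the ICR hippocampus. Counting more than 50% of pairs gave 3 opposed genes in the cortex, 5 in the ICR hippocampus, and 6 over all pairs, and using only pairs with Arntl at least 1.2-fold apart gave 1 in the cortex and 3 over all pairs. Dbp minus Arntl alone had a range of 2.65 in the transgenic hippocampus. Without both streptozotocin arrays, 0 members reached 2-fold in the ICR hippocampus and 2 other clock genes did in any set. Shares of all genes were counted only with the main processing and thresholds and with all arrays.

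Leaving out 1 array at a time, the members at 2-fold ranged from 0 to 3 in the transgenic hippocampus (0 without 5×FAD, 1 without NCSTN) and from 0 to 1 in the ICR hippocampus (0 without either streptozotocin array). The opposed genes ranged from 0 to 3 in the cortex, from 4 to 6 in the transgenic hippocampus, from 2 to 4 in the ICR hippocampus (4 without streptozotocin at 2.5 mg/kg), and from 1 to 3 over all pairs (2 without 4 months, 3 without streptozotocin at 2.5 mg/kg). The contrast had ranges from 0.33 (without 1.5 months) to 0.65 in the cortex, from 0.56 to 1.71 in the transgenic hippocampus, and from 0.23 (without Aβ at 10 μM) to 0.42 in the ICR hippocampus. Members apart numbered from 2 to 5 between the hippocampus sets, from 2 to 4 between transgenic hippocampus and cortex (4 without NCSTN or MAPT), and from 6 to 9 between older and younger cortex. In each case fewer arrays make separation easier. Other clock genes ranged from 2 to 4 at 2-fold in any set and from 0 to 2 opposed over all pairs. The cause of the other shifts was not tested. A slide or scan batch was not run, since none was found in the files, and no paired analysis was possible because each model has 1 array.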

Other observations

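The pattern of each gene over the 12 arrays was compared with those of Dbp and Arntl, with levels centred within each set, among 2380 genes that were well above background on every array and had a range of at least 2-fold in at least 1 set. These correlations are descriptions over arrays that share sets. The genes most like Dbp and Arntl were chosen for the highest r among the 2380, so their high values follow from the choice. Among the 5 genes most like Dbp were Lpl (r of 0.96), Lgals8 (0.93), and Zfp783 (0.91). Those most like Arntl were Calb1 (0.96), Myh7b (0.94), Vgf (0.93), Gramd4 (0.93), and Hcfc2 (0.93). Lpl encodes lipoprotein lipase, Calb1 the calcium buffer calbindin, and Vgf a secreted neuropeptide precursor. Without the 5×FAD array the values of the genes named for Dbp lay between 0.70 and 0.86 and of those for Arntl between 0.59 and 0.76. Dbp and Arntl themselves had an r of -0.85 over the 12 arrays and -0.46 over the 11 arrays without 5×FAD, and Per3 and Arntl -0.86 and -0.40.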
